A study of Mus musculus with 6 samples.

Results

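The genes described here encode the RAS-RAF-MEK-ERK pathway itself, from the adaptors that connect growth factor receptors to RAS down to the kinases that ERK activates. They are 34 genes listed by name for their place in the pathway, a list drawn up with earlier results of these data known, and 30 of them had a probe set that named them alone, out of 19938 genes so measured. Only Mras had more than 1, so that the 30 genes had 31 probe sets of the 28853 on the array. Hras, Frs2, Rps6ka1 and Rps6ka2 were not analysed here. MS5 cells, a mouse bone marrow stromal line that feeds haematopoietic and leukaemic cells in co-culture, were grown in alpha-MEM with fetal bovine serum for 7 days, with DMSO alone (control) or with PD184352, an inhibitor of MEK, at 1 μM (MEKi). Each of 3 independent experiments gave 1 control and 1 MEKi culture, and total RNA of each culture went on its own Affymetrix whole-transcript mouse array. No allele, transgene or second cell type was part of either group, so that the data speak of a single immortal line cultured without leukaemic cells. Values are log2 intensities after normalization with RMA, in which a difference of 1 is a doubling, and every difference below is MEKi minus control within an experiment. None of the 30 genes passed an adjusted p under 0.05 in limma, a linear model with moderated variances. Of all probe sets, 0.159% passed. Rras2 had the largest difference of the 30, 0.45 on the log2 scale.

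In this pathway, an activated receptor binds adaptors such as GRB2 and SHC1, which bring an exchange factor such as SOS1 to RAS at the membrane. RAS then binds GTP and recruits a RAF kinase, RAF phosphorylates MEK, and MEK phosphorylates ERK, while GTPase-activating proteins such as neurofibromin return RAS to its inactive state. PD184352 binds MEK beside its ATP site and keeps it from activating ERK, so that it acts on the protein and not on transcription. The arrays measured mRNA and give no account of phosphorylation or protein amounts. The question they can answer for these genes is whether a week with the inhibitor left the mRNAs of the pathway's own parts at other levels.

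The sequences just upstream of 4 components are shown because these genes had an unadjusted p under 0.05 in limma and an entry in the promoter table. All 4 were higher with MEKi in each of the 3 experiments. Gab2, on the lower side, also had an unadjusted p under 0.05 in limma but had no entry there. Each run is the 250 bases before the annotated start in RefSeq (GRCm38.p6), read 5′ to 3′ on the gene's strand, which was the minus strand for all 4. Capitals mark the motifs searched on both strands, which were the ETS core CCGGAA, the AP-1 site TGANTCA, the cAMP response element TGACGTCA and the GC box GGGCGG, and no marked motif overlapped another. The windows lie at chr7:114117782-114118031 for Rras2, chr11:79146474-79146723 for the first of 2 annotated starts of Ksr1, chr9:63377903-63378152 for Map2k5 and chr5:121191398-121191647 for Ptpn11.
Rras2: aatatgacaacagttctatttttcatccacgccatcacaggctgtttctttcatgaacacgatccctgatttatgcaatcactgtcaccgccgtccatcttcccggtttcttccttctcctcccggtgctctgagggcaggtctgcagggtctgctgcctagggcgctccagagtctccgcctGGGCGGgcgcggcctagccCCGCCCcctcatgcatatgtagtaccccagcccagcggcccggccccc
Ksr1: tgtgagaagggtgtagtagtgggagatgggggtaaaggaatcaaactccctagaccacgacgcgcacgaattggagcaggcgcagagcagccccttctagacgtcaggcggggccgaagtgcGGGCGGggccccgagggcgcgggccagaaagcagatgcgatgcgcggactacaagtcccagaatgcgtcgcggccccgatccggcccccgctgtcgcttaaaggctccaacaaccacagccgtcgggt
Map2k5: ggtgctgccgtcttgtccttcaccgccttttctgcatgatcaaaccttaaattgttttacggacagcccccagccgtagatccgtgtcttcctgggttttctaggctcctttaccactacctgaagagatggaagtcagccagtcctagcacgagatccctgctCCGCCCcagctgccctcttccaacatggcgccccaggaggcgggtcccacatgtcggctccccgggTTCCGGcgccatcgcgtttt
Ptpn11: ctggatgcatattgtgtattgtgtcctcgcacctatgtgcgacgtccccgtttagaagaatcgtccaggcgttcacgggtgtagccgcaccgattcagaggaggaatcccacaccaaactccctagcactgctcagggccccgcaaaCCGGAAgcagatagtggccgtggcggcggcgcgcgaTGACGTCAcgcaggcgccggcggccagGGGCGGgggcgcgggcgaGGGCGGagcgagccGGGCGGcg

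All 4 windows held a GC box, Rras2 with 2 and Ptpn11 with 3. The ETS core occurred once in the windows of Map2k5 and Ptpn11 and was not among the letters of Rras2 and of this start of Ksr1. Ptpn11 also had the cAMP response element, and the second start of Ksr1 had an AP-1 site. Of the 30 measured components, 28 were found in the promoter table, with 37 starts. A GC box was present in 23 of these 37 windows (62.2%), against 32.7% of the 32851 windows in the table. The ETS core was present in 8 (21.6%, against 12% in all), the AP-1 site in 2 (5.41%, against 6.75%) and the cAMP response element in 2 (5.41%, against 1.55%). By gene, 20 of the 28 had a GC box in at least 1 window. The windows of all genes were not matched to the components for expression, and a gene with several starts was counted several times. These letters are a description of the windows, and binding at them was not tested.

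The 6 arrays had medians between 6.29 and 6.38, and arrays of a group correlated by 0.988 to 0.996 over all probe sets, which are not independent replicates. With so few arrays, precision is limited by their number. Of 10 markers of mesenchymal stroma, 9 had a mean above the median of all probe sets, against 0 of 4 haematopoietic, 0 of 3 endothelial and 1 of 3 epithelial markers. Mean levels of the haematopoietic markers ran from 5.41 to 5.51 on the control arrays and from 5.38 to 5.48 on the MEKi arrays. Of 12 genes listed as outputs of ERK signalling, all had estimates below 0 (against 36% of all probe sets), 9 were lower in each of the 3 experiments (against 7.98%), and Ccnd1 and Fosl1 passed an adjusted p under 0.05. This list was also chosen with earlier results known and is no independent check of the treatment. Its median difference was −0.50, and the difference between them and the pathway components was not tested.

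The components differed from their control levels by about as much as all probe sets did. Their median difference was 0.057, against 0.037 over all probe sets, and the median size of a difference without its sign was 0.074, against 0.075 over all probe sets. At an adjusted p under 0.05 from limma 0 of 30 passed, where 0.159% of all probe sets did, and the smallest adjusted p was 0.131, that of Rras2. At an unadjusted p under 0.05 there were 5 of 30 (16.7%), where 9.89% of all probe sets passed. Rras2, Ksr1, Map2k5 and Ptpn11 were the 4 on the higher side (13.3%, against 7.58% of all probe sets), and Gab2 was the one on the lower side (3.33%, against 2.31%). The components were mostly bright, 29 of 30 having a mean at or above the median of all probe sets. Among the brighter probe sets fitted alone, 14.3% passed an unadjusted p under 0.05 from limma. In that fit 5 of 29 components were on the higher side and 1 on the lower. The 95% confidence interval lay within 1.5-fold of no difference for 29 of 30, a share of 96.7% that is near the 96.8% of all probe sets. The exception was Rras2, whose interval reached 1.54-fold. In a culture, fewer cells that express a gene and less of its mRNA per cell cannot be told apart.

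**Figure D1:**
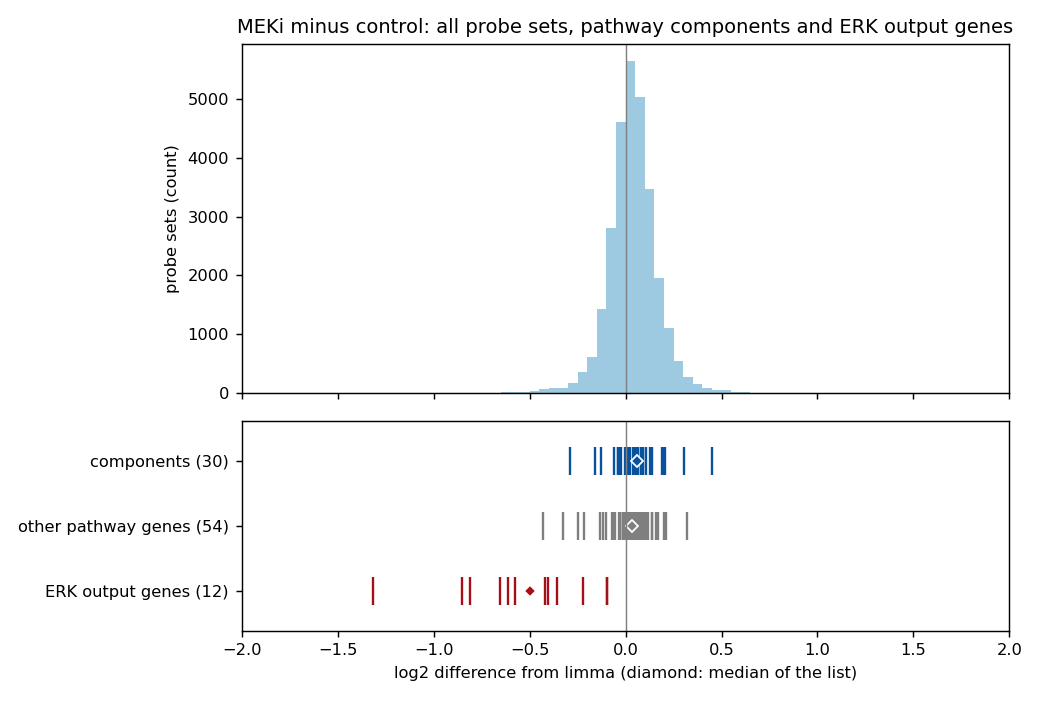
Differences between MEKi and control on the log2 scale (x axis), as a histogram of all 28853 probe sets (upper panel, counts of probe sets on the y axis) and as ticks for the 30 components, 54 other pathway genes and 12 ERK output genes (lower panel, 1 row per list, diamonds are medians). The components lie between −0.29 and 0.45 around a median of 0.057, while the ERK output genes lie between −1.32 and −0.097.

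The 3 experiments did not contribute alike. Over all probe sets, the median difference was −0.003 in experiment 1, 0.10 in experiment 2 and 0.014 in experiment 3. The components too had their largest median difference in experiment 2, at 0.16 against 0.10 over all probe sets. Whether they rose more there than all probe sets was not tested. In experiment 2, 28 of the 30 were higher with MEKi (93.3%, against 75% of all probe sets), and in experiments 1 and 3 there were 15 (50%, against 49.1%) and 16 (53.3%, against 53.5%). Set against the median of all probe sets in experiment 2, 20 components lay above it and 10 below. Across the experiments, 10 components were higher in all 3 (33.3%, against 23.8% of all probe sets) and 1, Iqgap1, was lower in all 3 (3.33%, against 7.98%). With each experiment's median subtracted, these counts became 8 above and 5 below, where 16.3% and 16% of all probe sets lay above and below in all 3.

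**Figure D2:**
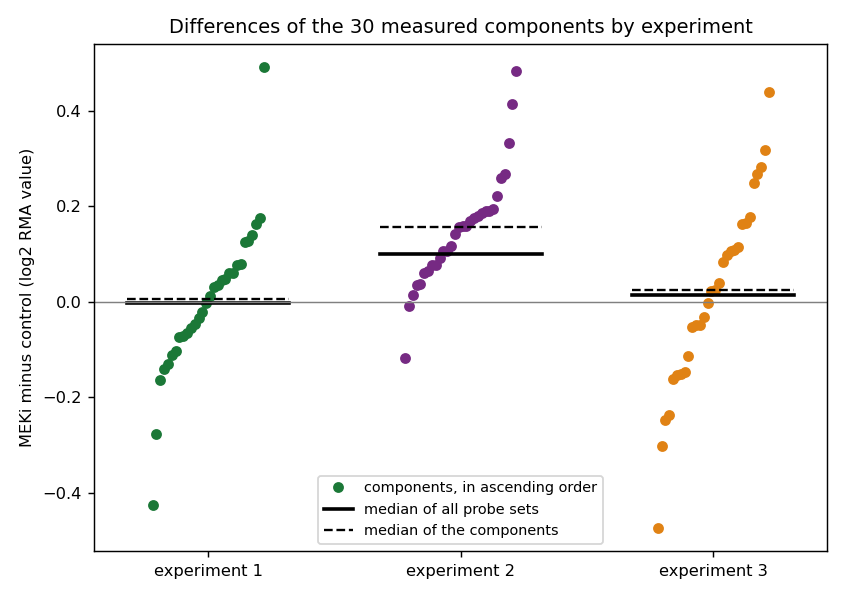
MEKi minus control in log2 RMA values (y axis) for the 30 measured components in experiments 1, 2 and 3 (x axis), each point a gene in ascending order. The solid line is the median of all probe sets, which is at 0.10 in experiment 2 and near 0 in the others, and the dashed line is the median of the components, 0.16 in experiment 2.

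**Figure D3:**
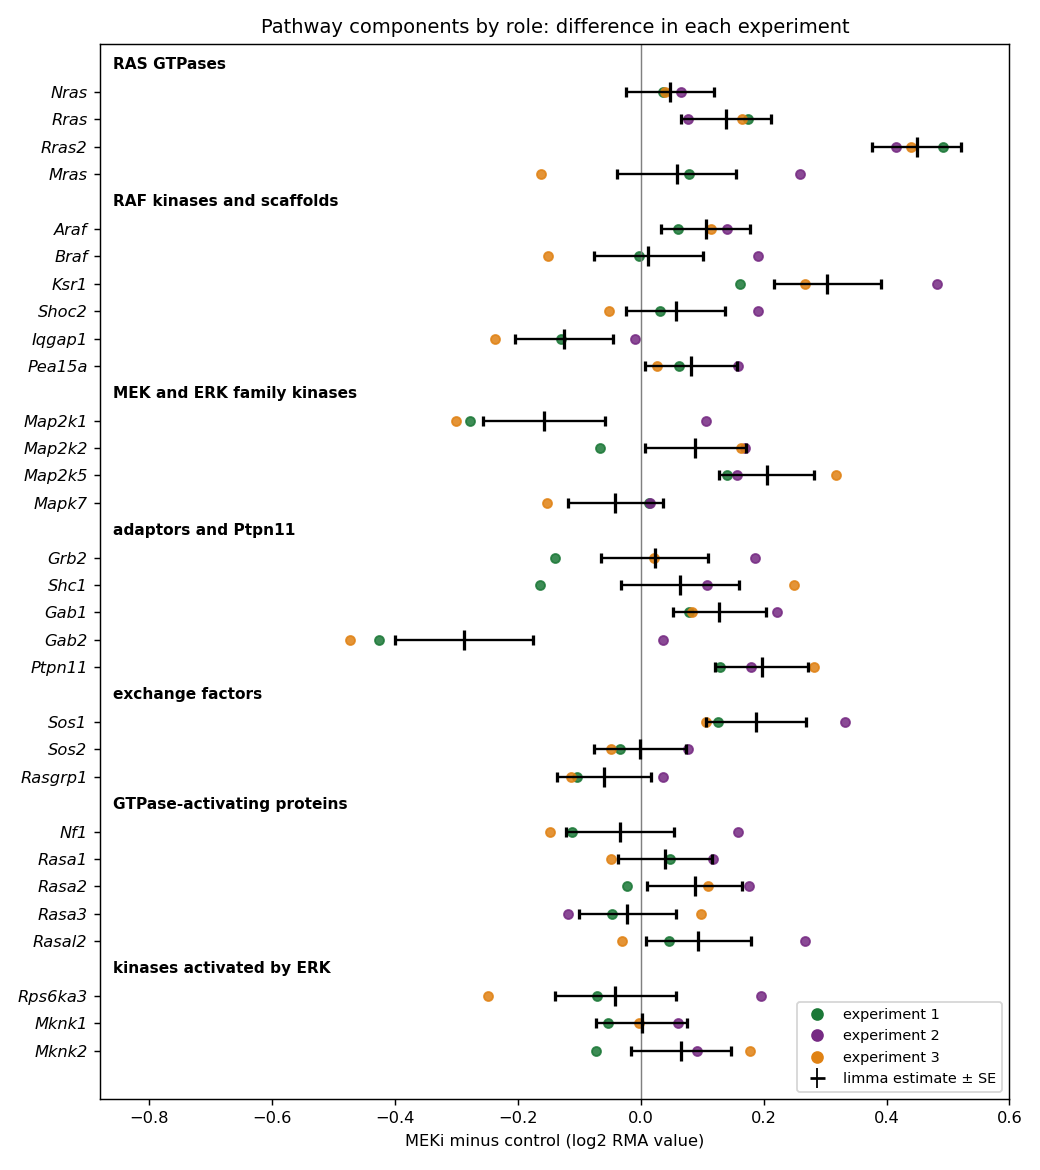
MEKi minus control in log2 RMA values (x axis) for the 30 components grouped by role (y axis). Each experiment has a coloured point, and limma's estimate ± standard error is drawn in black. The 3 points of Rras2 lie between 0.42 and 0.49, while those of most other genes lie on both sides of 0.

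The RAS GTPases are the switches of the pathway, and all 4 measured had estimates above 0, between 0.047 and 0.45. Of all 28853 probe sets, 18470 also had estimates above 0. Rras2 encodes a RAS-related GTPase that, like the classical RAS proteins, can engage RAF and PI3 kinase. Its values were 9.59, 9.56 and 9.23 on the control arrays of experiments 1, 2 and 3 and 10.08, 9.98 and 9.67 on the MEKi arrays. Each MEKi array lay above each control array, and Rras2 was the one component of which this was true in either direction (3.33% of 30, against 7.86% of all probe sets). The differences were 0.49, 0.42 and 0.44, close to each other although the control arrays ranged over 0.37. The estimate was 0.45 (standard error 0.073, n = 3 experiments), or 1.37-fold with a 95% confidence interval of 1.21 to 1.54. The unadjusted p was 0.000409 and the adjusted p 0.131 from limma, so that Rras2 did not pass over all probe sets. It did pass with an intensity trend and a robust prior (adjusted p = 0.0384 from limma), and it stayed at an unadjusted p under 0.05 in all 12 alternatives, its estimate running from 0.41 to 0.47. Without the replicate block its unadjusted p was 0.0187 and its adjusted p 0.9995 from limma. In that fit 0 of all probe sets passed an adjusted p under 0.05.

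Rras, a close relative whose product regulates integrin-mediated adhesion, had smaller differences. Its values were 11.97, 12.03 and 11.76 on the control arrays and 12.14, 12.10 and 11.93 on the MEKi arrays, so that the groups overlapped. The estimate was 0.14 (adjusted p = 0.596 from limma), and it was 0.10 after further quantile normalization. Nras, one of the classical RAS genes, was among the steadiest components, at differences of 0.036, 0.065 and 0.039 in experiments 1, 2 and 3. Its control arrays spanned 0.061. The product of Mras joins SHOC2 in a phosphatase complex that prepares RAF for activation. The brighter of its 2 probe sets had differences of 0.078, 0.26 and −0.16, with an estimate of 0.058, and the other had 0.13, 0.31 and 0.028, with an estimate of 0.16. They disagree in direction in experiment 3. Whether Rras2 differed more than its relatives was not tested.

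**Figure D4:**
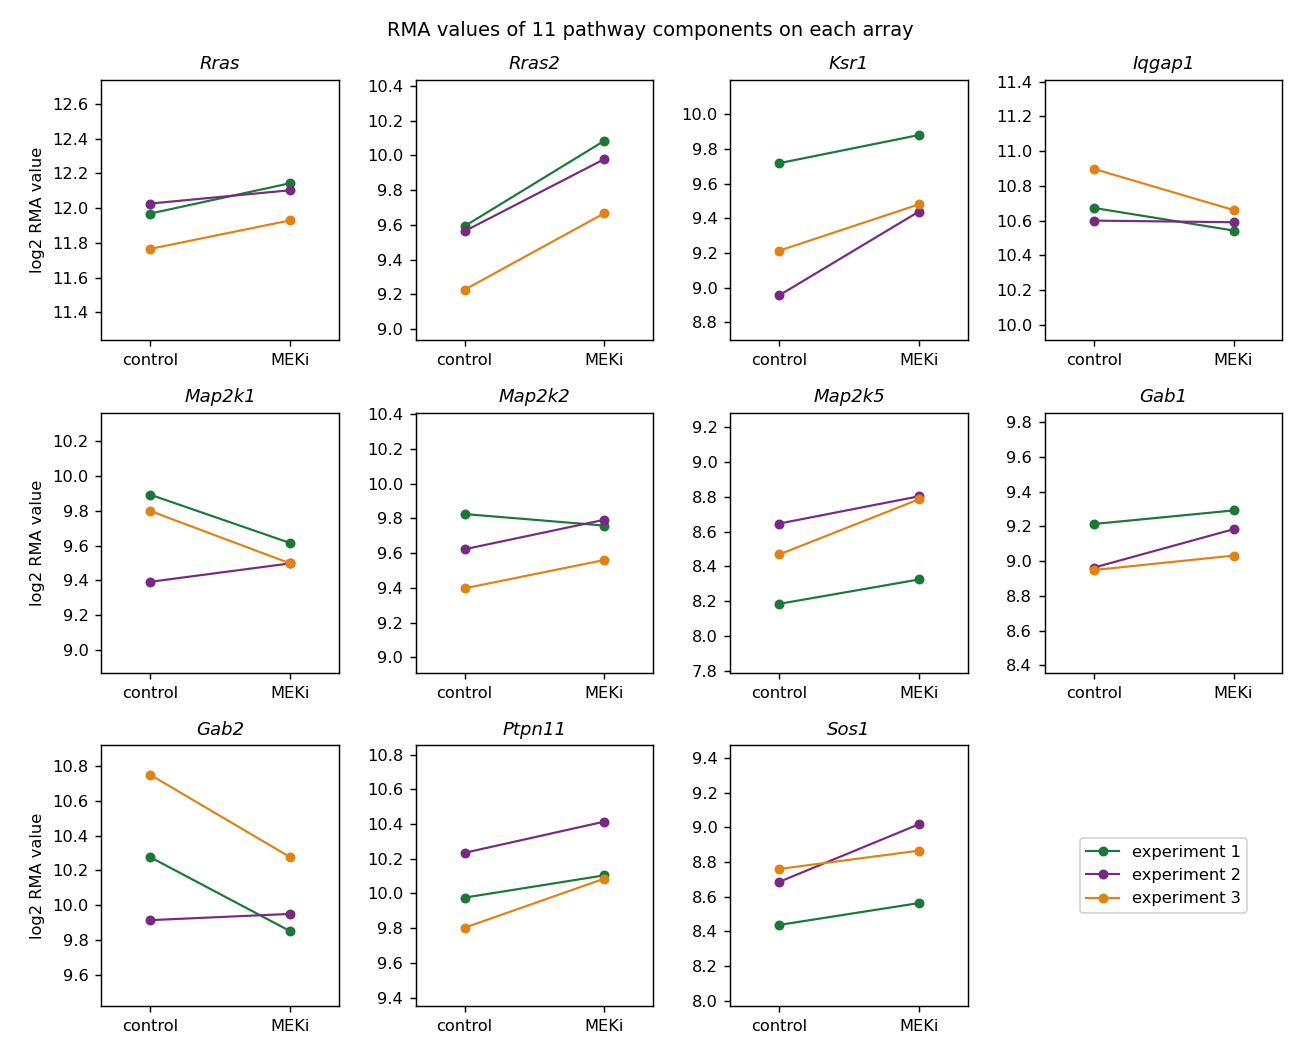
RMA values on the log2 scale (y axis, 1.5 units in every panel) of 11 components in control and MEKi cultures (x axis), with a line joining the 2 cultures of an experiment. The lines of Rras2 run upward in parallel, over 0.42 to 0.49, and those of Gab2 and Map2k1 slope down in experiments 1 and 3 and slightly up in experiment 2.

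Among RAF kinases and the proteins that hold or guide them, Ksr1 had the largest difference. Its product is a scaffold on which RAF, MEK and ERK assemble. Ksr1 was at 9.72, 8.96 and 9.21 on the control arrays and at 9.88, 9.44 and 9.48 on the MEKi arrays of experiments 1, 2 and 3. Every experiment showed a higher value with MEKi, but the control array of experiment 1 was above the MEKi arrays of experiments 2 and 3, and the control arrays ranged over 0.76. The differences were 0.16, 0.48 and 0.27, and the estimate was 0.30 (standard error 0.087), or 1.23-fold with a 95% confidence interval of 1.07 to 1.42. Its unadjusted p was 0.00982 and its adjusted p 0.336 from limma. The estimate was 0.37 without experiment 1 and 0.21 without experiment 2. Without the replicate block the unadjusted p was 0.196.

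The RAF kinases differed little. Araf had differences of 0.061, 0.14 and 0.11 (estimate 0.11, 95% confidence interval −0.065 to 0.28), and Braf had −0.003, 0.19 and −0.15 (estimate 0.012, 95% confidence interval −0.20 to 0.22). Braf thus lay on both sides of 0 and its sign depended on the scaling of the arrays, being −0.020 with the arrays centred on their medians. Shoc2, the partner of MRAS, was at 10.64, 10.60 and 10.65 on the control arrays, and its differences were 0.031, 0.19 and −0.052. Iqgap1, a large scaffold that binds MEK and ERK and also the cytoskeleton, was at 10.67, 10.60 and 10.90 with control and at 10.54, 10.59 and 10.66 with MEKi. It was lower in each experiment, by as little as 0.009 in experiment 2, with an estimate of −0.13 (adjusted p = 0.659 from limma). Pea15a, whose product holds ERK in the cytoplasm, had an estimate of 0.082.

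The MEK genes Map2k1 and Map2k2 encode the enzymes that PD184352 binds. Map2k1 was at 9.89, 9.39 and 9.80 on the control arrays and at 9.62, 9.50 and 9.50 on the MEKi arrays. It was lower with MEKi in experiments 1 and 3, by 0.28 and 0.30, and higher by 0.11 in experiment 2, where the median of all probe sets was itself higher by 0.10. The control array of experiment 2 was below all 3 MEKi arrays. The estimate was −0.16 (standard error 0.10, 95% confidence interval −0.39 to 0.077, adjusted p = 0.659 from limma). Without experiment 2 it was −0.29, with an unadjusted p of 0.0142 and an adjusted p of 0.325 from limma. Map2k2 was at 9.82, 9.62 and 9.40 with control and at 9.76, 9.79 and 9.56 with MEKi, with an estimate of 0.089 (95% confidence interval −0.11 to 0.28). The paired differences of Map2k2 were −0.066, 0.17 and 0.16, so that the MEK genes had opposite signs in experiment 3 and the same sign in experiments 1 and 2. Neither passed.

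MEK5, encoded by Map2k5, heads a parallel branch in which it activates the kinase ERK5, the product of Mapk7. Map2k5 was at 8.18, 8.65 and 8.47 on the control arrays and at 8.32, 8.80 and 8.79 on the MEKi arrays, higher in each experiment with groups that overlapped. The differences were 0.14, 0.16 and 0.32, and the estimate was 0.21 (95% confidence interval 0.023 to 0.39). The unadjusted p was 0.0325 and the adjusted p 0.454 from limma. Map2k5 kept an unadjusted p under 0.05 in 6 of the 12 alternatives, and it lost it without experiment 1 (0.0576) and without experiment 3 (0.209), with the arrays centred (0.059) or quantile normalized (0.0897), and with the replicate block dropped (0.27) or made random (0.114). Mapk7 had differences of 0.013, 0.015 and −0.15, with an estimate of −0.042.

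Adaptors carry the signal from the receptor to RAS, and the phosphatase SHP2, encoded by Ptpn11, is needed for full RAS activation downstream of many receptors. Ptpn11 was at 9.98, 10.23 and 9.80 with control and at 10.10, 10.41 and 10.09 with MEKi. It was higher in each experiment, by 0.13, 0.18 and 0.28, with groups that overlapped and an estimate of 0.20 (95% confidence interval 0.019 to 0.37, adjusted p = 0.462 from limma). The unadjusted p was 0.0343, and it lay between 0.0587 and 0.196 without any one of the experiments. Gab1 and Gab2 encode docking proteins that recruit SHP2. Gab2 was at 10.28, 9.91 and 10.75 on the control arrays and at 9.85, 9.95 and 10.28 on the MEKi arrays. It was lower by 0.43 in experiment 1 and by 0.47 in experiment 3, and higher by 0.036 in experiment 2, whose control array was the lowest of the 3. Of all the components Gab2 had the widest control arrays, over a range of 0.84. The estimate was −0.29 (standard error 0.112, 95% confidence interval −0.55 to −0.025, unadjusted p = 0.0359 and adjusted p = 0.466 from limma). It was −0.45 without experiment 2, with an adjusted p of 0.228 from limma, and −0.22 without experiment 1 and −0.19 without experiment 3, where the unadjusted p was 0.151 and 0.176.

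Gab1 differed the other way. Its values were 9.21, 8.96 and 8.95 with control and 9.29, 9.18 and 9.03 with MEKi, an estimate of 0.13 (adjusted p = 0.643 from limma) with overlapping groups. The adaptor genes Grb2 and Shc1 had estimates of 0.022 and 0.064 and lay on both sides of 0, Grb2 at −0.14, 0.19 and 0.022 and Shc1 at −0.16, 0.11 and 0.25 in experiments 1, 2 and 3.

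Exchange factors load RAS with GTP, and GTPase-activating proteins end its signal. Sos1 was at 8.44, 8.69 and 8.76 with control and at 8.56, 9.02 and 8.87 with MEKi, higher in each experiment with overlapping groups. Its estimate was 0.19 (95% confidence interval −0.003 to 0.38) with an unadjusted p of 0.053 and an adjusted p of 0.514 from limma. The unadjusted p of Sos1 was 0.048 among the brighter probe sets and 0.0497 among probe sets naming 1 gene. Its paralogue Sos2 had an estimate of −0.002 (95% confidence interval −0.18 to 0.17) from differences of −0.034, 0.077 and −0.048. Rasgrp1, an exchange factor known best from lymphocytes, was the one component whose mean lay below the median of all probe sets. It was at 4.66, 4.66 and 4.61 on the control arrays and had an estimate of −0.060.

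None of the 5 GTPase-activating proteins had the same sign in all 3 experiments. Of all probe sets, only 23.8% were higher and 7.98% lower in all 3. Nf1, which encodes neurofibromin, had differences of −0.11, 0.16 and −0.15 and an estimate of −0.034 (95% confidence interval −0.24 to 0.17). Estimates were 0.039 for Rasa1, 0.087 for Rasa2, −0.022 for Rasa3 and 0.094 for Rasal2. Rasa3 was the component that was clearly on the lower side in experiment 2, at −0.12, and it was higher by 0.098 in experiment 3. The median of the 5 estimates was 0.039.

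The last tier holds the kinases that ERK activates, of which 3 were measured. Rps6ka3 encodes the ribosomal S6 kinase RSK2, and Mknk1 and Mknk2 encode kinases that phosphorylate the cap-binding translation factor. Rps6ka3 had differences of −0.072, 0.19 and −0.25, the widest spread of this tier, and an estimate of −0.042. Mknk1 stayed within 0.061 of 0 in every experiment, with an estimate of 0.001 (95% confidence interval −0.17 to 0.17). Mknk2 had differences of −0.073, 0.092 and 0.18 and an estimate of 0.065. All 3 were lower with MEKi in experiment 1 and higher in experiment 2, and none had the same sign throughout. Of all probe sets, 49.1% were higher in experiment 1 and 75% in experiment 2.

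Over the 3 control arrays, their range had a median of 0.29 and ran from 0.047 for Shoc2 to 0.84 for Gab2. For 27 of the 30 (90%) this range was larger than the size of the estimated difference with MEKi, a share near the 87.2% of all probe sets. The exceptions were Rras2, Shoc2 and Rasgrp1, and for Shoc2 and Rasgrp1 it was the control range that was small. Measured against the standard deviation of the control arrays, 8 of the 30 (26.7%) had a larger difference with MEKi, against 32.4% of all probe sets.

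**Figure D5:**
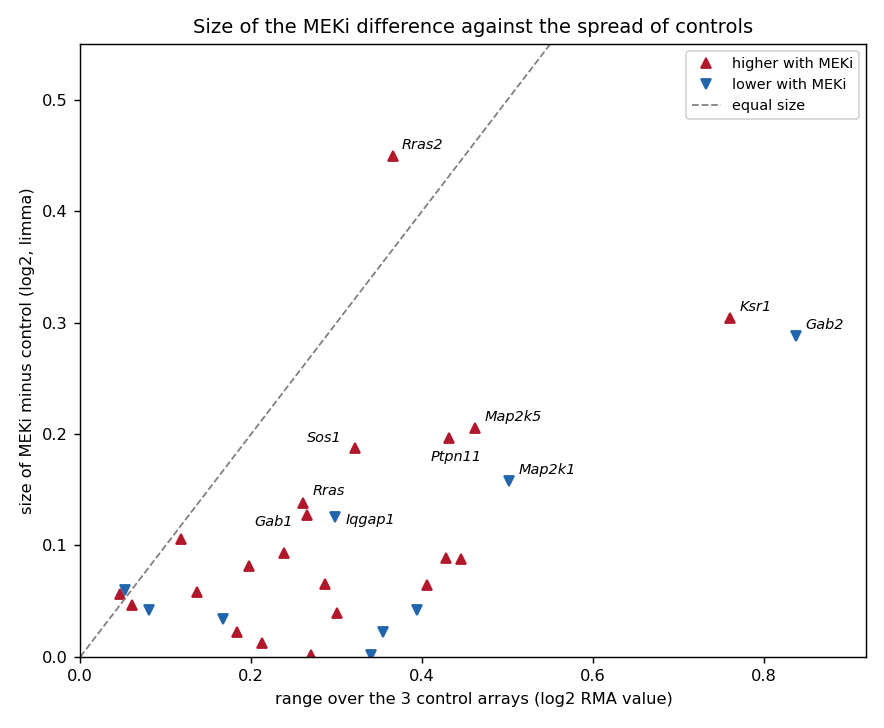
Size of the MEKi difference from limma (y axis, log2) against the range of the 3 control arrays (x axis, log2 RMA value) for the 30 components, with upward triangles for genes higher with MEKi. Rras2, at 0.45 against 0.37, lies above the dashed line of equal size, while Ksr1 and Gab2 have differences of 0.30 and −0.29 against control ranges of 0.76 and 0.84.

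A wider list of 56 pathway genes, holding other scaffolds, RAS effectors, exchange factors, GTPase-activating proteins and the enzymes that process RAS for the membrane, had 54 measured. None passed an adjusted p under 0.05 from limma, where 0.159% of all probe sets did. At an unadjusted p under 0.05, 3 were higher (5.56%, against 7.58% of all probe sets) and 2 lower (3.7%, against 2.31%), and the median was 0.034, against 0.037 over all. Rgl1, an exchange factor for RAL that is recruited by active RAS, had the largest difference of the list at −0.43 (standard error 0.078, adjusted p = 0.162 from limma) and was lower in all 3 experiments. Rasa4, a further GTPase-activating protein, was at −0.33 (adjusted p = 0.413 from limma). Its differences were −0.48, 0.008 and −0.51, and its control arrays ranged over 0.72. On the higher side were Paqr3, a Golgi protein that tethers RAF, at 0.32 (adjusted p = 0.271 from limma), the adaptor Shc3 at 0.21 and the small GTPase Rasd2 at 0.20. Shc3 and Rasd2 had means below the median of all probe sets.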

How the data were processed

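The authors extracted total RNA from MS5 cells, hybridized it to Affymetrix mouse Gene 1.0 ST arrays and normalized the raw intensities with RMA in Bioconductor. The deposited table holds the resulting log2 values of 28853 probe sets on 6 arrays, and the submitters' processing notes name RMA and Partek without versions. The genome build behind the deposited probe sets is not given in the sources used here. The values were used as deposited, with 0 columns left out.

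Probe sets were named by the platform annotation, which gave 1 gene to 21789 of them, several to 1621 and no symbol to 5443. Where a gene had more than 1 probe set, the brightest on average stood for it. Differences between MEKi and control were fitted over all probe sets with lmFit and eBayes of limma 3.58.1 (R 4.3.3). The model held the experiment as a block. The Benjamini-Hochberg adjustment ran over all probe sets (threshold 0.05). The block left 2 residual degrees of freedom, to which the prior added 5.17. The numbers pair the arrays, since each experiment gave both cultures, and deviations from the group means correlated by 0.81, 0.59 and 0.62 within experiments, against −0.61 to 0.21 between them. Intervals are 95% intervals from the same fit.

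The components and gene lists were chosen with earlier results of these data known. All 34 components are named, and array values are given for Map2k1, Map2k2, Map2k5, those at an unadjusted p under 0.05 and the 10 with the largest differences. Genes of the wider list are named only at an unadjusted p under 0.05. Motifs were counted in 250 bases upstream of RefSeq starts (GRCm38.p6). The 12 alternatives are given at the end. Plots used matplotlib 3.10.9 and counting of motifs used Python 3.11.15.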

Additional observations from a re-analysis of the deposited data

How the results depend on the processing

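The count of 0 components at an adjusted p under 0.05 (limma) held in 11 of the 12 alternatives, and became 1, Rras2, with an intensity trend and robust prior. Of all probe sets, 46 passed in the main fit and 115 with the trend and robust prior. The number was 0 without the replicate block, with it as a random effect, after centring and without experiment 2. In those fits no component could pass, so their count of 0 says nothing about the components. In the remaining alternatives 14 to 61 passed. At an unadjusted p under 0.05 the main counts of 4 higher and 1 lower became 1 and 0 without the replicate block, 1 and 0 with the replicate block as a random effect, and 2 and 1 after further quantile normalization or centring of arrays on their medians. Leaving out 1 experiment in turn gave 2 to 3 higher and 0 to 2 lower. Of all probe sets, 3.14% passed without the replicate block and 8.04% with it as a random effect. The share was 9.67% after quantile normalization, 9.64% after centring and 6.96% to 10.6% with 1 experiment left out. Components lower in all experiments numbered 6 after quantile normalization, 5 after centring, and 1 to 9 over the experiments left out, the 9 being without experiment 2. With 1 experiment left out only 2 had to agree, so that these counts cannot be set beside those over 3. The share of all probe sets lower in all experiments was not counted for these alternatives. Over all probe sets, higher ones made up 76.7% of those at an unadjusted p under 0.05, 52.5% after quantile normalization, 57.6% after centring and 55.1% without experiment 2. Of the 30 components, 17 kept their sign in every alternative in which they were tested. The share of all probe sets that did so was not counted, so whether 17 is many or few cannot be told. Changed signs after array weights, centring and quantile normalization were −0.024, −0.020 and −0.025 for Braf, −0.0043, −0.0096 and −0.040 for Grb2 and −0.0085, −0.031 and −0.052 for Mknk1, and after quantile normalization −0.0030 for Nras and −0.0087 for Rasa1. With 1 experiment left out, estimates ran from −0.077 to 0.093 for Braf, −0.059 to 0.10 for Grb2, −0.070 to 0.014 for Mapk7, −0.028 to 0.029 for Mknk1, −0.042 to 0.17 for Mras, −0.13 to 0.023 for Nf1, −0.083 to 0.025 for Rasa3, −0.16 to 0.062 for Rps6ka3, −0.029 to 0.18 for Shc1, −0.011 to 0.11 for Shoc2 and −0.041 to 0.021 for Sos2. The cause of these changes was not tested.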
